A study of Rattus norvegicus with 18 samples.

Results

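The mitochondrial solute carriers of the SLC25 family were taken as every gene whose platform annotation symbol is Slc25a followed by a number. Probe sets with exactly 1 symbol were used, and the brightest probe set stood for a gene with several. This gave 39 carriers among the 14217 genes measured, from 57 probe sets, and 12 of the carriers had more than 1 probe set. The study dosed rats by mouth once a day with inhibitors of the cyclin-dependent kinases CDK4 and CDK6, and its title places the work in intestinal toxicity. Mucosal scrapings of the jejunum from male Sprague Dawley rats aged 6 to 8 weeks were profiled on 18 Affymetrix arrays, 3 in each of 6 groups. The groups were abemaciclib at 120 mg/kg/day, abemaciclib at 36 mg/kg/day, ribociclib at 300 mg/kg/day, palbociclib at 100 mg/kg/day, palbociclib at 30 mg/kg/day and vehicle (methyl cellulose). Dosing ran for 4 or 15 days in groups of 10 rats, and the labels do not say which duration an array comes from.

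Abemaciclib and ribociclib were given in hydroxypropyl methylcellulose with tween 80 in citrate buffer, whereas the vehicle arrays carry the methyl cellulose that palbociclib was given in. In every difference of abemaciclib or ribociclib from vehicle, the compound and its vehicle therefore cannot be told apart. The title of abemaciclib 120 replicate B gives a dose of 100, against 120 in its treatment label, which was used. Nothing in the labels says whether arrays of a group came from separate rats, so the p-values reflect array-to-array spread, which may be technical. The values are log2 signals, and array medians over all 31099 probe sets lay between 5.41 and 5.51. The median centring used below took each array's median over the 14217 genes instead, so its shifts can exceed that range. The absorptive enterocyte markers were bright in every group. Their mean over 13 genes was 12.2 in abemaciclib 120, 12.8 in ribociclib and 12.9 in vehicle. In this mean, every abemaciclib 120 array lay below every vehicle array.

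SLC25 proteins sit mainly in the inner mitochondrial membrane and exchange nucleotides, phosphate, carboxylates, amino acids, cofactors and iron between the cytosol and the matrix. In the small intestine they link the matrix to enterocyte metabolism, such as citrulline synthesis from glutamine and the malate-aspartate shuttle that moves reducing equivalents inward. Slc25a25 encodes a calcium-regulated ATP-Mg/phosphate carrier (SCaMC-2), which changes the amount of adenine nucleotide in the matrix.

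The promoters of Slc25a25 and Slc25a33 are shown because they were the members whose windows hold the full cAMP response element letters TGACGTCA, and because Slc25a25 differed most from vehicle. Sequences are from RefSeq on GRCr8 and run from 250 bases before to 50 bases after the annotated start, on the minus strand, with the element in capitals. Slc25a25 is at chr3:36116532-36116831, with the element starting at position -158 from the start site. Slc25a33, a pyrimidine nucleotide carrier, is at chr5:165502924-165503223, with the element at position -84. Both windows lie inside the annotated span of the gene.
Slc25a25: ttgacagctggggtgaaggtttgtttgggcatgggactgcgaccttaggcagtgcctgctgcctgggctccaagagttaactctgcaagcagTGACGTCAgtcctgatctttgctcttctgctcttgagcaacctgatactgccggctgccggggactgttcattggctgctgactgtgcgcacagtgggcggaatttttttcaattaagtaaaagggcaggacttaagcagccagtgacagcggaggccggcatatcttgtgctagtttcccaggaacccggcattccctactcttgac
Slc25a33: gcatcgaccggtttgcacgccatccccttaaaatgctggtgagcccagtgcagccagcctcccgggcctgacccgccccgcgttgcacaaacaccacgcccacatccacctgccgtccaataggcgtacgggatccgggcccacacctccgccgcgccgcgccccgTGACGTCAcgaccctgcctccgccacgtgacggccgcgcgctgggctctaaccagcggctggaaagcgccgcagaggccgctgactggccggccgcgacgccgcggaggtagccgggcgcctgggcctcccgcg

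Of the 39 carriers, 34 had a promoter window, and Slc25a30, Slc25a32, Slc25a36, Slc25a37 and Slc25a46 had none in the table used. The element, searched on both strands, was in 2 of the 34 member windows (5.88%) and in 525 of 27457 windows of all genes (1.91%). The E-box CACGTG was in 2 member windows (5.88%, against 6.65% of all windows), and the Slc25a33 window holds it too. The ETS letters CCGGAAG were in 6 (17.6%, against 9.22%), and the NRF1 letters, GCGCA followed directly by TGCGC, were in 0 (against 0.932%). A match is a description of these letters only. Slc25a33 had a log2 difference from vehicle of -0.76 in abemaciclib 120 (limma adjusted p = 0.124). Its arrays were 5.89 to 6.28 there, 6.01 to 6.27 in abemaciclib 36 and 6.14 to 6.43 in palbociclib 100. All lay below the 6.73 to 6.96 of vehicle, but the gene was not called. Whether the element bears on the signal of either gene was not tested.

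Slc25a25 was higher than vehicle under both doses of abemaciclib and under ribociclib. Its log2 signal was 9.82, 8.22 and 10.05 in abemaciclib 120. It was 11.15, 9.33 and 11.02 in abemaciclib 36, and 9.76, 9.40 and 9.70 in ribociclib. It was 7.92, 6.95 and 7.01 in palbociclib 100, 7.03, 6.56 and 7.53 in palbociclib 30, and 7.19, 7.29 and 7.75 in vehicle. All 9 arrays of abemaciclib and ribociclib lay above every vehicle array, whereas both palbociclib groups overlapped vehicle. Replicate B was the lowest array in each treated group, and replicate A in vehicle.

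**Figure D1:**
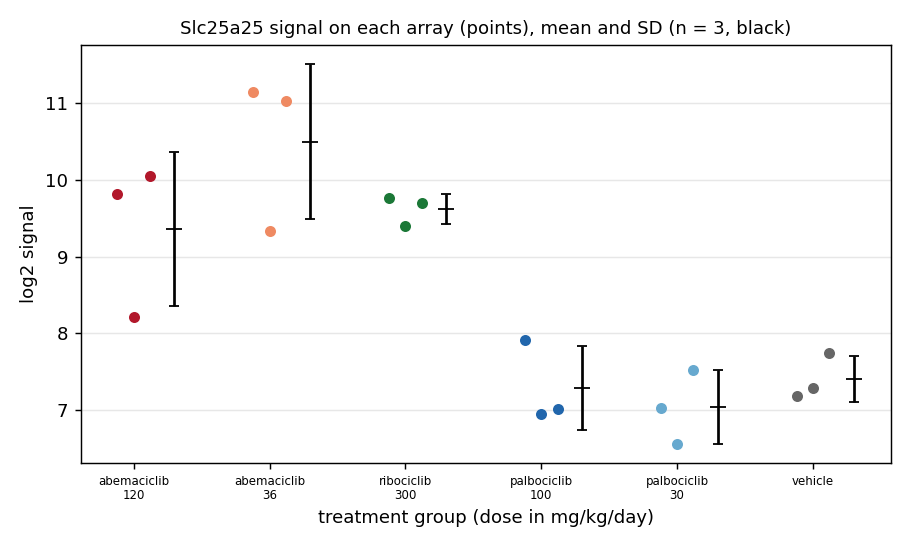
Log2 signal of Slc25a25 on each array (points) by treatment group and dose in mg/kg/day, with the mean and SD of 3 arrays in black. Abemaciclib and ribociclib arrays lie between 8.22 and 11.15, and vehicle arrays between 7.19 and 7.75.

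In limma's contrasts, with Benjamini-Hochberg adjustment over all 14217 genes, Slc25a25 was 3.87-fold higher in abemaciclib 120 than in vehicle (log2 difference 1.95 ± 0.49 SE, adjusted p = 0.0106). It was 8.52-fold higher in abemaciclib 36 (3.09 ± 0.49, adjusted p = 0.00491) and 4.64-fold higher in ribociclib (2.21 ± 0.49, adjusted p = 0.0215). The log2 difference was -0.11 in palbociclib 100 (95% interval -1.15 to 0.918) and -0.37 in palbociclib 30 (-1.40 to 0.666). These comparisons share the vehicle arrays. Between abemaciclib doses the difference was -1.14 (120 minus 36, interval -2.17 to -0.105), which did not pass after adjustment (adjusted p = 0.188). Abemaciclib 120 minus ribociclib was -0.26 (interval -1.29 to 0.771, adjusted p = 0.714). The doses of the compounds are not matched.

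The call in abemaciclib 36 passed in all 6 fits that left out 1 array. The call in abemaciclib 120 was lost without its replicate A (adjusted p = 0.0615) or C (0.0530). It was also lost when the 3' minus 5' signal of beta-actin, a measure of RNA quality, was a covariate (0.0505). That signal was 0.862 to 1.05 in abemaciclib 120 and 0.571 to 0.793 in vehicle, without overlap. The covariate fit therefore cannot separate RNA quality from the group in this comparison. The call in ribociclib was lost without vehicle replicate A (0.0755), B (0.0993) or C (0.0606) and without ribociclib replicate C (0.0633), at log2 differences of 2.11 to 2.38.

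In abemaciclib 120, 3 carriers were higher (Slc25a25, Slc25a37 and Slc25a24) and 3 lower (Slc25a45, Slc25a44 and Slc25a10), 6 of 39, where 18% of all genes were called, 9.6% higher and 8.41% lower. In ribociclib, 1 was higher (Slc25a25) and 4 lower (Slc25a45, Slc25a15, Slc25a12 and Slc25a11), 5 of 39, where 3.73% of all genes were called, 0.999% higher and 2.74% lower. With each array centred on its median, which moved the median of all genes by -0.108 and 0.175 in these comparisons, the counts were 2 higher and 3 lower, and 2 and 2. With quantile normalization they were 3 and 3, and 2 and 3. In abemaciclib 36, Slc25a25 was the 1 carrier called, where 2.08% of all genes were called, 0.499% higher and 1.58% lower. The arrays of treated and vehicle rats did not overlap for 14 carriers in abemaciclib 120 (37.3% of all genes), 7 in abemaciclib 36 (20.3%), 14 in ribociclib (24.4%), 8 in palbociclib 100 (19%) and 4 in palbociclib 30 (11.2%).

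**Figure D2:**
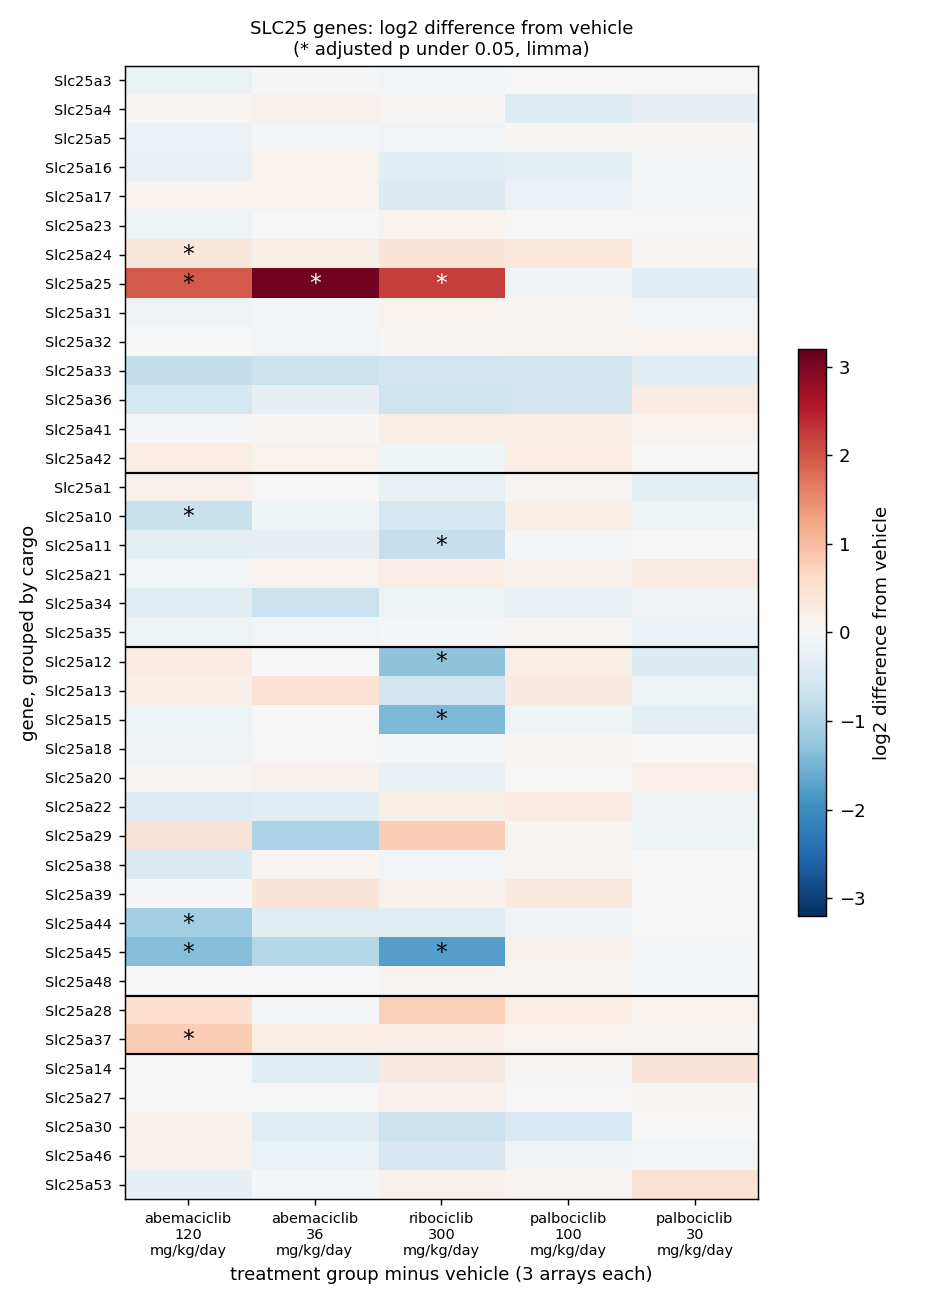
Log2 difference from vehicle (colour) of the 39 carriers (rows, grouped by cargo) in 5 treatment groups (columns), with an asterisk where limma's adjusted p was under 0.05. Slc25a25 stands out in abemaciclib 120, abemaciclib 36 and ribociclib, and neither palbociclib column holds an asterisk.

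Neither palbociclib dose gave a call. By limma 0 carriers were called at 100 and 0 at 30 mg/kg/day, where 0% of all genes were called at either dose. At an unadjusted p under 0.05 there were 2 carriers at each dose, against 1023 and 357 of all genes. A p that misses the threshold does not show that the carriers are alike in palbociclib and vehicle. Median centring moved the median of all genes by 0.114 and 0.141 in these comparisons, and the counts stayed at 0.

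Over all 6 groups, limma's F test called 11 carriers, where 22.6% of all genes were called. They were Slc25a10, Slc25a11, Slc25a12, Slc25a15, Slc25a24, Slc25a25, Slc25a29, Slc25a30, Slc25a44, Slc25a45 and Slc25a53. Slc25a25 had an adjusted p of 0.000455. Slc25a53 passed in no single contrast, and its largest difference from vehicle was 0.46 in palbociclib 30 (adjusted p = 0.998). Of the 39, 24 carriers were called neither here nor in a contrast.

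Among the nucleotide and phosphate carriers, Slc25a5 and Slc25a3 were not called in any comparison. Slc25a5, an ADP/ATP carrier, was 13.53, 13.66 and 13.60 in abemaciclib 120 and 13.81, 13.79 and 13.72 in vehicle. These arrays did not overlap, but the log2 difference of -0.18 (interval -0.348 to -0.00436) did not pass (adjusted p = 0.156). Slc25a3, the phosphate carrier, gave -0.21 (interval -0.401 to -0.0130, adjusted p = 0.139). In ribociclib the differences were -0.08 and -0.09, with intervals of -0.251 to 0.0926 and -0.285 to 0.103.

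Slc25a24, the calcium-regulated ATP-Mg/phosphate carrier SCaMC-1, was 12.25, 12.22 and 12.28 in abemaciclib 120 and 11.83, 11.90 and 11.96 in vehicle. The groups did not overlap, and the log2 difference was 0.35 ± 0.11 SE (adjusted p = 0.0402). The call was lost in each of the 6 fits without 1 array, where adjusted p was at most 0.129, with median centring (adjusted p = 0.285), with the RNA quality covariate (0.0671) and in a fit of the compared groups alone (0.0537). In ribociclib the difference was 0.41 (adjusted p = 0.0547). Slc25a23 and Slc25a41, related ATP-Mg/phosphate carriers, were not called in any comparison.

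Among the carboxylate carriers, Slc25a10 and Slc25a11 were lower. Slc25a10, the dicarboxylate carrier, was 10.32, 10.10 and 10.25 in abemaciclib 120 and 10.99, 10.86 and 10.97 in vehicle. The groups did not overlap, and the log2 difference of -0.72 ± 0.17 SE passed (adjusted p = 0.00708), also in all 6 fits without 1 array. With the RNA quality covariate it was -0.61 (adjusted p = 0.0514). Its second probe set gave -0.66 (adjusted p = 0.216). In ribociclib Slc25a10 was 10.40, 10.54 and 10.15, also below every vehicle array, but it was not called there.

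Slc25a11, the oxoglutarate/malate carrier of the malate-aspartate shuttle, was 10.58, 10.20 and 10.40 in ribociclib and 11.21, 10.98 and 11.17 in vehicle. The groups were separate, with a log2 difference of -0.73 ± 0.14 SE (adjusted p = 0.0128). The call was lost without vehicle replicate A (0.0541) or C (0.0635), and with median centring it was -0.55 (adjusted p = 0.0797). Fitted on the compared groups alone, its adjusted p was 0.122. In abemaciclib 120 it was -0.32 (adjusted p = 0.142).

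Among the amino acid carriers, Slc25a15 and Slc25a12 were lower in ribociclib. Slc25a15, the ornithine/citrulline carrier of the urea cycle and of intestinal citrulline synthesis, was 10.06, 9.26 and 9.60 in ribociclib and 11.17, 11.005 and 11.07 in vehicle. All ribociclib arrays were below all vehicle arrays. The log2 difference was -1.44 ± 0.24 SE (adjusted p = 0.00608), and it passed in all 6 fits without 1 array. Fitted on the ribociclib and vehicle arrays alone, its adjusted p was 0.0565. With each probe set as its own feature, 4 of its 6 probe sets were called lower, at -1.44, -1.74, -1.48 and -1.81.

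Slc25a12, the aspartate/glutamate carrier aralar of the malate-aspartate shuttle, was 6.35, 6.66 and 6.71 in ribociclib and 7.81, 7.86 and 7.87 in vehicle. The groups were separate, with a log2 difference of -1.28 ± 0.25 SE (adjusted p = 0.0121). It was lost without vehicle replicate B (0.0545) or C (0.0555) and in a fit of the compared groups alone (0.0565). Slc25a13, the other aspartate/glutamate carrier (citrin), gave -0.62 (adjusted p = 0.349).

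Slc25a44, a carrier of branched-chain amino acids, was 8.59, 8.58 and 7.99 in abemaciclib 120 and 9.57, 9.30 and 9.64 in vehicle. The groups did not overlap, and the log2 difference of -1.12 ± 0.21 SE (adjusted p = 0.00190) passed in all 6 fits without 1 array and in all 8 other alternatives. Its second probe set gave -1.17 (adjusted p = 0.00506). In ribociclib the difference was -0.34 (adjusted p = 0.377).

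Slc25a45 was 9.001, 9.29 and 9.11 in abemaciclib 120, 8.99, 9.96 and 7.29 in ribociclib, and 10.60, 10.35 and 10.56 in vehicle. Both treated groups lay below vehicle, with a wide spread in ribociclib. The log2 differences were -1.37 in abemaciclib 120 (adjusted p = 0.0441) and -1.76 in ribociclib (adjusted p = 0.0414). The first call was lost in each of the 6 fits without 1 array, and the second without vehicle replicate A (0.113), B (0.120) or C (0.126) and without ribociclib replicate C, where the difference was -1.03 (0.102). The abemaciclib 120 call was also lost without the trend (0.0513) and with the RNA quality covariate, where the difference was -0.75 (0.316). The ribociclib call was also lost with quantile normalization (0.0569), with median centring (0.059) and in a fit of the compared groups alone (0.214).

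**Figure D3:**
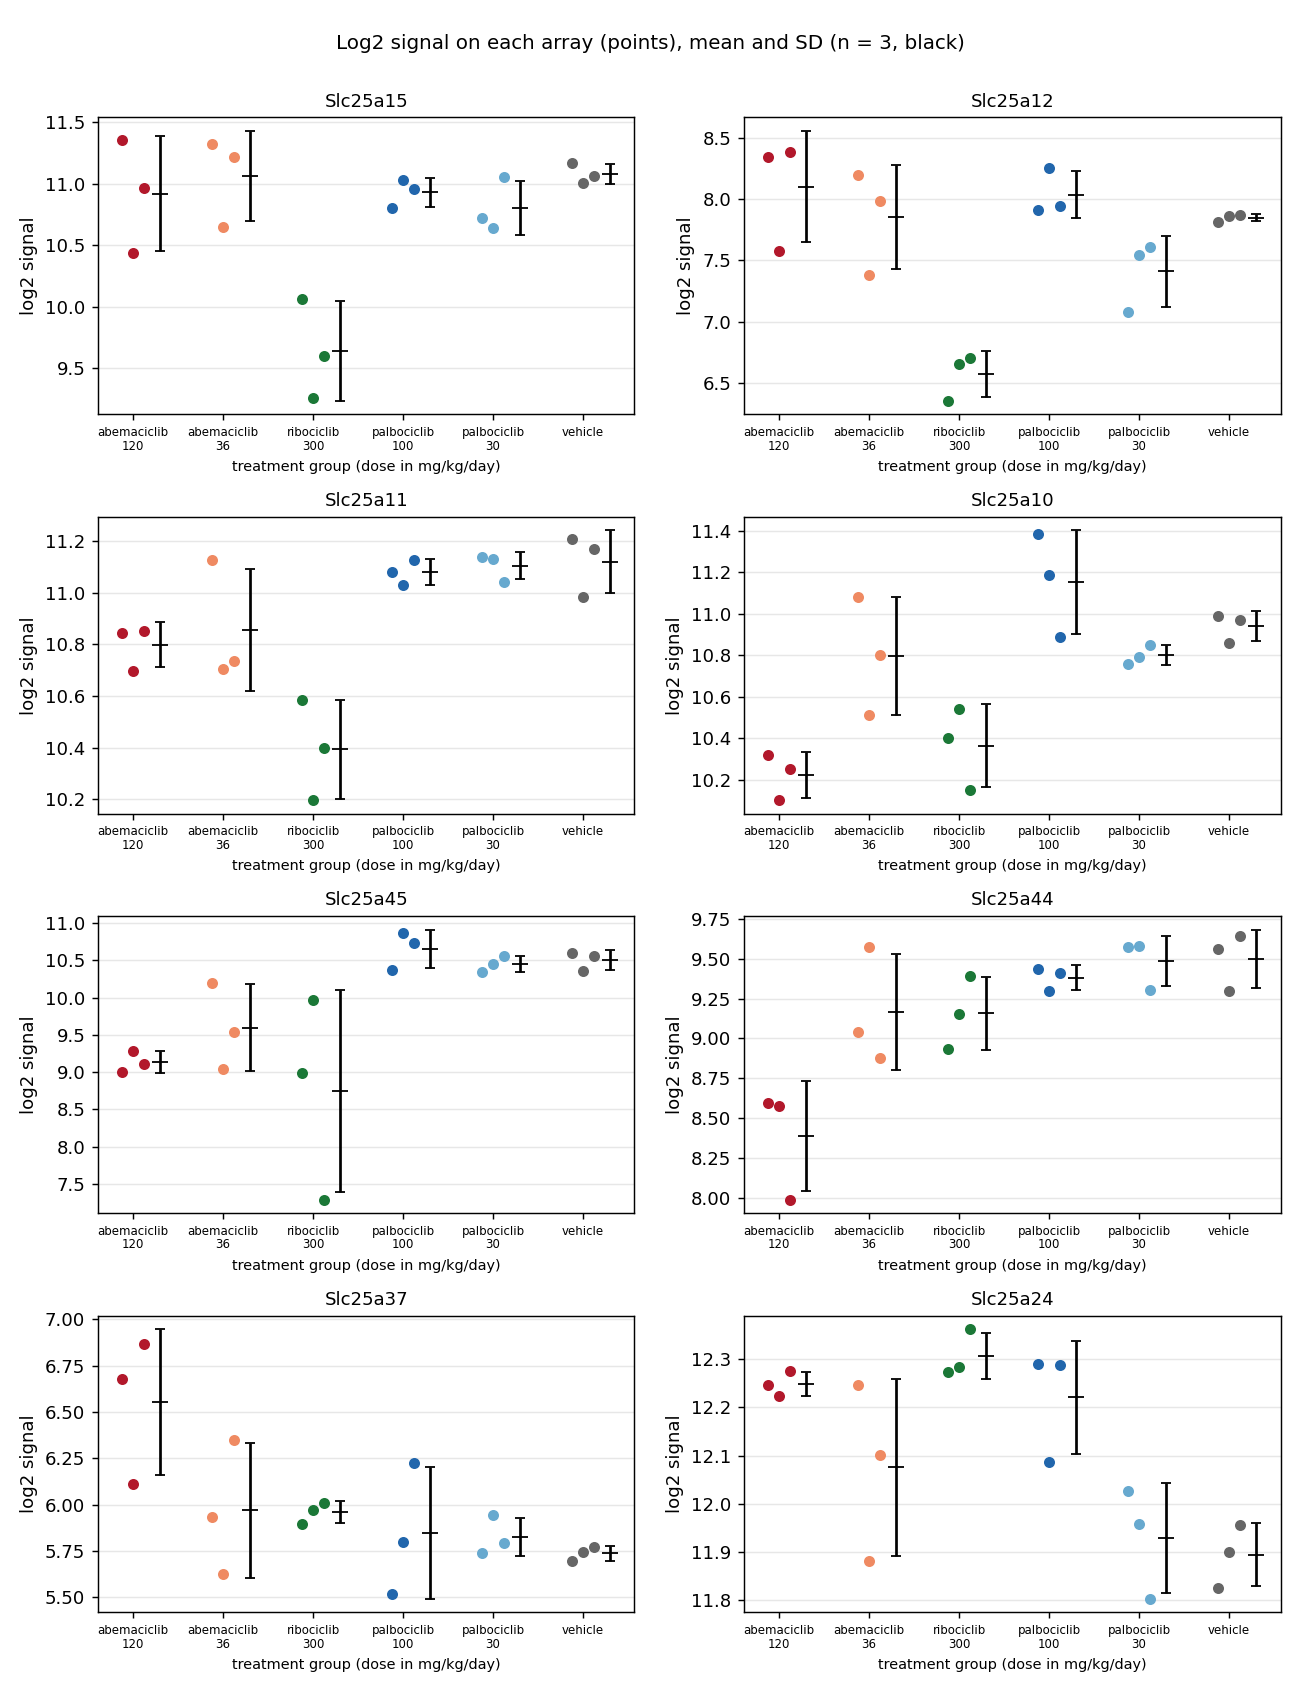
Log2 signal on each array (points) of 8 further carriers called against vehicle, by treatment group and dose in mg/kg/day, with the mean and SD of 3 arrays in black. Slc25a15 and Slc25a12 are lowest in ribociclib, and Slc25a44 is lowest in abemaciclib 120.

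Slc25a37, the iron importer mitoferrin-1, was 6.68, 6.11 and 6.87 in abemaciclib 120 and 5.69, 5.74 and 5.77 in vehicle. The groups did not overlap, and the log2 difference was 0.82 ± 0.22 SE (adjusted p = 0.0159), which was lost without vehicle replicate A (0.0514) or abemaciclib 120 replicate A (0.0709) or C (0.0737), and with the RNA quality covariate (0.0787). Slc25a28, the related mitoferrin-2, gave 0.53 in abemaciclib 120 (adjusted p = 0.186) and 0.77 in ribociclib (adjusted p = 0.113).

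**Figure D4:**
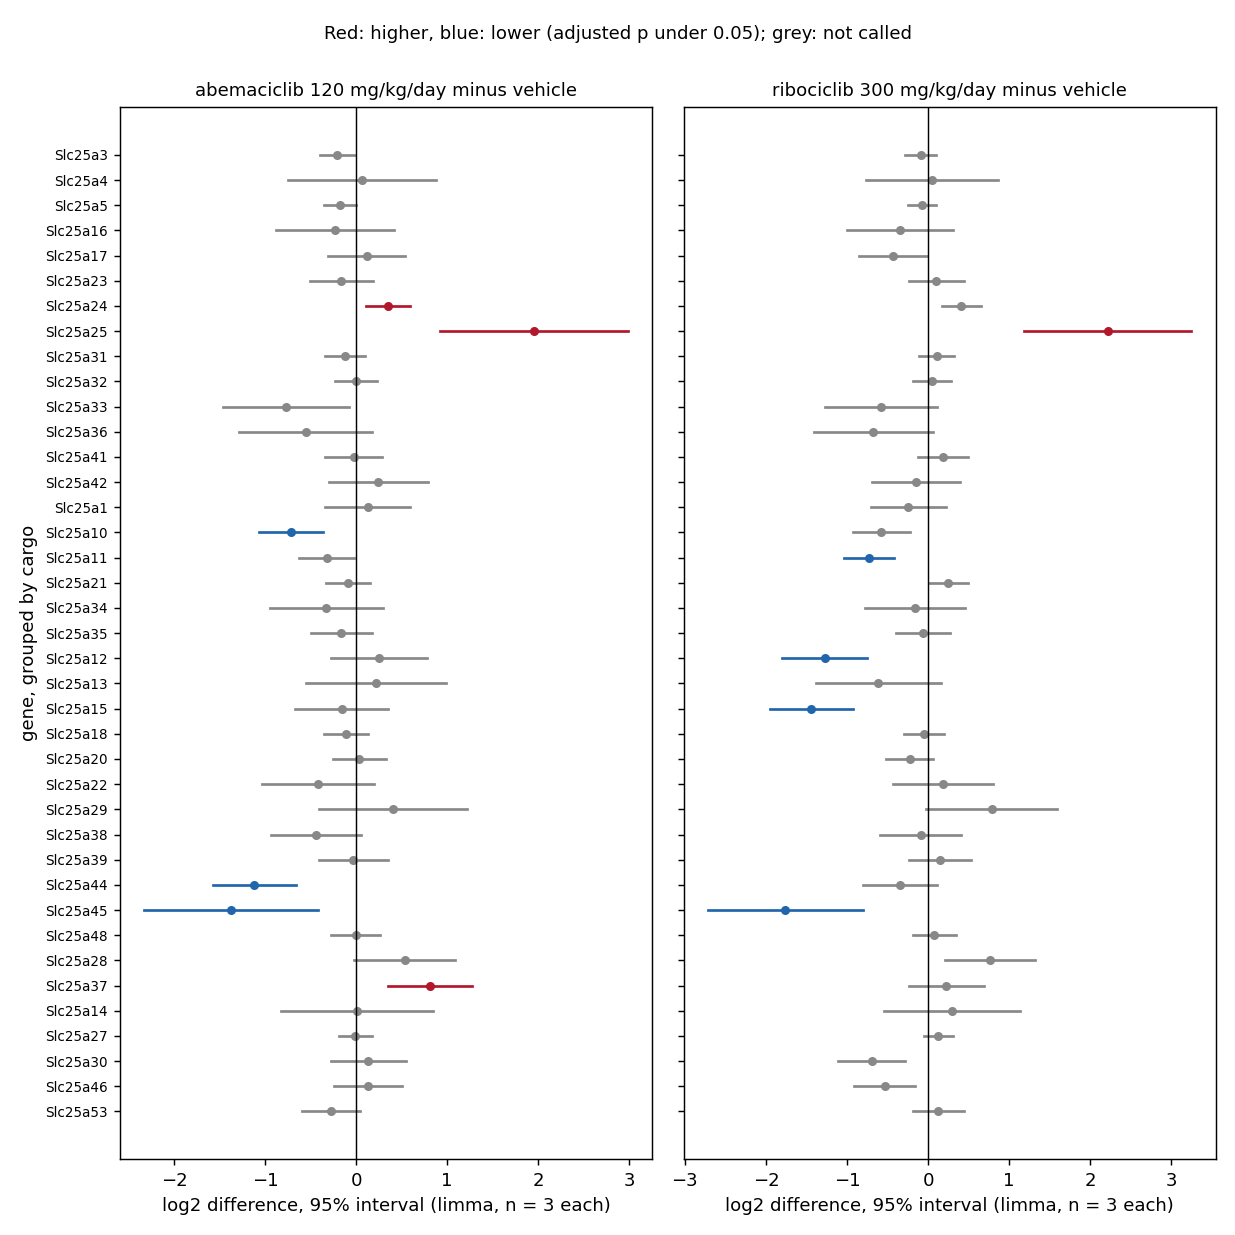
Log2 difference from vehicle with its 95% interval for each carrier in abemaciclib 120 (left) and ribociclib (right), red where called higher and blue where called lower. Slc25a25 lies at 1.95 and 2.21, and the narrow intervals of Slc25a3 and Slc25a5 lie close to 0.

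Between abemaciclib doses (120 minus 36), 1 carrier was higher and 2 lower, where 7.59% of all genes were called, 4.82% higher and 2.77% lower. The arrays did not overlap for 12 carriers, against 23.6% of all genes. Slc25a29, a basic amino acid carrier, was 8.56, 9.05 and 8.04 at 120 and 6.68, 7.30 and 7.48 at 36 mg/kg/day. The groups were separate, with a log2 difference of 1.40 (adjusted p = 0.0349). Slc25a44 was lower by a log2 difference of -0.78 (adjusted p = 0.0350) and Slc25a10 by -0.57 (adjusted p = 0.0465). With quantile normalization, or with median centring, which moved the median of all genes by -0.178, the counts were 0 higher and 2 lower. None of the 3 calls was made in a fit of these groups alone, or without abemaciclib 36 replicate A or abemaciclib 120 replicate A. By limma 0 carriers were called between palbociclib doses, where 0% of all genes were. At an unadjusted p under 0.05 there were 5 carriers. No share of all genes at that cutoff is given beside this count, so it is not read as a dose effect. The palbociclib arrays did not overlap for 6 carriers, against 13.4% of all genes.

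Abemaciclib 120 and ribociclib shared a vehicle, so their difference was tested directly, at doses that differ. Of the carriers, 6 were higher and 2 lower in abemaciclib 120 than in ribociclib, where 27.2% of all genes were called, 17.2% higher and 10% lower. The arrays did not overlap for 12 carriers, against 37.4% of all genes. Slc25a12 was 8.34, 7.58 and 8.38 in abemaciclib 120 against the ribociclib values above, a log2 difference of 1.53 ± 0.25 SE (adjusted p = 0.00075). Slc25a15 was 11.36, 10.43 and 10.97 in abemaciclib 120, a difference of 1.28 ± 0.24 SE (adjusted p = 0.00182). For both genes the groups did not overlap, and both calls passed in all 6 fits without 1 array and all 8 other alternatives.

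The other higher carriers were Slc25a30 (0.83, adjusted p = 0.00585), Slc25a46 (0.67, adjusted p = 0.0113), Slc25a17 (0.55, adjusted p = 0.0494) and Slc25a11 (0.41, adjusted p = 0.0462). Slc25a30 is related to the uncoupling proteins, Slc25a46 acts at the outer membrane in mitochondrial shape, and Slc25a17 is a peroxisomal cofactor carrier. Slc25a44 (-0.77, adjusted p = 0.0150) and the oxodicarboxylate carrier Slc25a21 (-0.33, adjusted p = 0.0387) were lower. Of these 6, Slc25a30 and Slc25a46 passed in all fits without 1 array, Slc25a44 was lost without abemaciclib 120 replicate C (0.0727) or ribociclib replicate C (0.0674), and Slc25a11, Slc25a17 and Slc25a21 were lost in 4 or 5 of 6. None of the 6 passed in a fit of the compared groups alone. Slc25a46 was also lost with median centring (0.0701), with the mean of its probe sets (0.228) and with the RNA quality covariate (0.199), and Slc25a30 with quantile normalization (0.0522). The covariate ended the calls of Slc25a44, Slc25a11, Slc25a17 and Slc25a21 too. Slc25a21 averaged 4.73 over all arrays, below every array median, and was also lost with quantile normalization and with the replicate block. Slc25a17 was also lost with quantile normalization and with median centring, and Slc25a11 with median centring. Centring each array on its median moved the median of all genes by -0.283 here, and the counts became 3 higher and 11 lower. With quantile normalization they were 4 and 2.

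The carriers as a list lay close to all genes. Their median log2 difference from vehicle was -0.03 in abemaciclib 120 and -0.08 in ribociclib, against -0.02 and 0.00136 over all genes. Median centring moves every gene of a comparison by the same amount: the carrier medians became -0.14 and 0.10, so the sign in ribociclib flips, and those of all genes -0.128 and 0.177. The carrier median stood at -0.01 and -0.08 relative to all genes with and without centring. In abemaciclib 120, where 9.6% of all genes were called higher and 8.41% lower, 12 of 27 protein import genes were called higher and 0 lower (median 0.71), among them Timm10b (1.91) and Tomm40 (1.70), which carry precursors across the membranes. Of 73 mitochondrial ribosomal protein genes, 12 were higher and 0 lower (median 0.58). Of 99 respiratory chain and ATP synthase genes, taken by symbol prefix, 5 were higher and 1 lower (median 0.10, and -0.00295 with median centring). In ribociclib, where 0.999% of all genes were called higher and 2.74% lower, 0 import genes were higher and 2 lower, Timm29 (-1.04) and Timm17a (-1.07), with a median of -0.52. Of the ribosomal protein genes, 0 were higher and 2 lower (median -0.62), and of the 99 respiratory chain and ATP synthase genes 0 were higher and 4 lower (median -0.46), shares near those of all genes. The medians of import and ribosomal protein genes kept their signs under both scalings, at 0.60 and 0.47 in abemaciclib 120 and -0.34 and -0.44 in ribociclib with median centring.

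**Figure D5:**
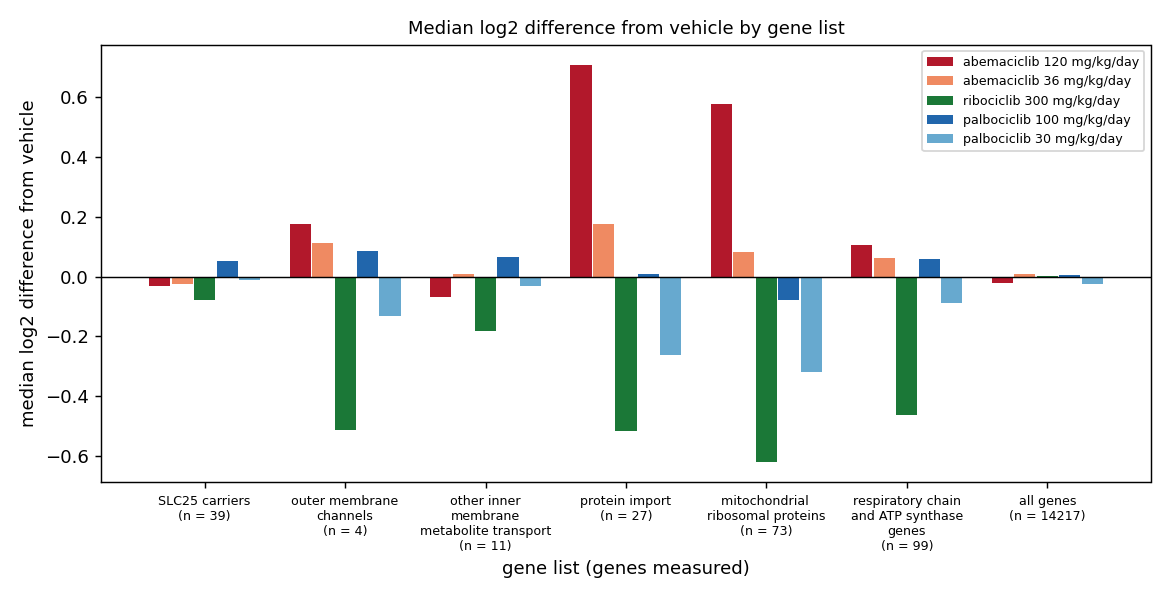
Median log2 difference from vehicle (bars) of 7 gene sets in 5 treatment groups, with the number of genes measured under each name. The carrier bars stay between -0.08 and 0.05, whereas protein import reaches 0.71 in abemaciclib 120 and -0.52 in ribociclib.

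Genes that work beside the called carriers were also read from their lists. Of all genes, 9.6% were called higher and 8.41% lower in abemaciclib 120. The shares were 0.499% and 1.58% in abemaciclib 36, and 0.999% and 2.74% in ribociclib. The counts of these short lists were not tested against those shares. Of 13 genes of ornithine, citrulline and proline synthesis, ribociclib had 0 higher and 2 lower, Nags (-1.21, adjusted p = 0.00949), which makes the activator of carbamoyl phosphate synthesis, and Aldh18a1 (-1.43, adjusted p = 0.0334), which makes pyrroline-carboxylate from glutamate. Nags was also the 1 gene of this list called lower in abemaciclib 36 (-1.09, adjusted p = 0.0203), and it was -0.55 in abemaciclib 120 (adjusted p = 0.107). Abemaciclib 120 had 1 higher, Cps1 (1.66), and 1 lower, Oat (-0.95). Of 6 genes of the malate-aspartate and glycerol phosphate shuttles, 0 were called by limma in ribociclib, with 2 at an unadjusted p under 0.05. Of 15 haem and iron-sulphur genes, 0 were higher and 2 lower in abemaciclib 120, Ppox (-2.06) and Fdx1 (-0.93). Ppox was also lower in ribociclib (-1.28, adjusted p = 0.0215), and it was -1.09 in abemaciclib 36 (adjusted p = 0.0536). Ppargc1a, a coactivator of mitochondrial biogenesis, was lower in abemaciclib 120 (-1.96, adjusted p = 0.000274), abemaciclib 36 (-1.94, adjusted p = 0.00290) and ribociclib (-2.47, adjusted p = 0.000547). The list of biogenesis regulators did not move in 1 direction. Its gene Polg2 was called higher in abemaciclib 36 (1.48, limma adjusted p = 0.0328).

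Markers of some cell types differed from vehicle, also in a group without carrier calls. In palbociclib 100, mean T and NK cell signals were 7.18 to 7.97 per array, against 8.54 to 8.93 in vehicle. Mast cell signals there were 5.08 to 5.35, against 5.64 to 5.83. In abemaciclib 120, where 9.6% of all genes were called higher and 8.41% lower, 12 of 14 crypt and dividing cell markers were higher. Their mean was 7.96 to 8.40 per array against 5.76 to 6.33 in vehicle. T and NK cell markers were lower for 9 of 11 (5.42 to 6.33 against 8.54 to 8.93 in vehicle). Enterocyte markers were lower for 3 of 13, and their mean did not overlap vehicle (12.003 to 12.335 against 12.708 to 13.098). Macrophage and dendritic cell markers were lower for 5 of 8 (5.22 to 5.65 against 6.35 to 6.81 in vehicle). The mean signals of goblet (13.16 to 13.37 against 12.42 to 12.73 in vehicle), enteroendocrine (8.01 to 8.35 against 8.46 to 8.78) and mast cell markers (4.40 to 5.29 against 5.64 to 5.83) did not overlap vehicle either. Of these, 1 of 7 goblet markers was called higher and 1 lower, and 1 of 7 enteroendocrine and 1 of 7 mast cell markers lower. In abemaciclib 36 (0.499% of all genes higher and 1.58% lower), T and NK cell markers were lower for 4 of 11 (7.31 to 7.58). Crypt markers were higher for 1 of 14 (6.01 to 7.08), and enteroendocrine markers for 1 of 7 (8.90 to 9.17). In ribociclib (0.999% of all genes higher and 2.74% lower), T and NK cell markers were lower for 4 of 11 (6.47 to 8.25). Macrophage and dendritic cell markers were lower there for 1 of 8 (5.67 to 6.18). Mean smooth muscle signals over 8 genes were 6.82 to 8.35 in ribociclib, above the 6.47 to 6.76 of vehicle without overlap. By limma, 0 of 13 enterocyte and 0 of 14 crypt markers were called in ribociclib, with 2 and 0 at an unadjusted p under 0.05. The beta-actin 3' minus 5' signal was 0.862 to 1.05 in abemaciclib 120, 0.529 to 0.800 in abemaciclib 36, 0.404 to 0.897 in ribociclib and 0.571 to 0.793 in vehicle. Only the abemaciclib 120 range lay apart from vehicle. The part of these shifts in the carrier differences was not tested. For abemaciclib 120 against vehicle, the covariate values given cannot separate RNA quality from the group. In scrapings, fewer cells of a type and less RNA per cell cannot be told apart.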

How the data were processed

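The log2 values were deposited by the authors as 1 table of 18 arrays. Per the submitters' processing notes, the tools were Transcriptome Analysis Console, Expression Console (Affymetrix) and RMA, with versions and settings not given in the sources used here. Of 31099 probe sets, 20826 had 1 symbol, 436 several and 9780 none, and 57 were controls. Symbols came from the platform annotation, and 20758 probe sets matched RefSeq. The brightest probe set was kept per gene.

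All 14217 genes on 18 arrays were fitted with limma 3.58.1 in R 4.3.3, each group having its own mean (12 residual degrees of freedom), with eBayes trend and Benjamini-Hochberg adjustment, and called at 0.05. No filter on dim genes was applied, and 8 carriers averaged below the highest array median. The number of arrays limits the precision. On simulated data for abemaciclib 120 against vehicle (14217 genes, 200 changed), 50% of 2-fold and 86% of 4-fold changes were recovered, with 5 false among 132 calls. The simulated noise was independent between genes, and far fewer genes were changed than the 2560 called in the real comparison. The recovery describes that setting only. Array pairs correlated at 0.918 to 0.993, and 0 pairs were identical.

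Carriers called in at least 1 comparison or the F test were described in full. The carriers, gene lists and the beta-actin covariate were chosen with earlier results of these data known. Alternatives were quantile normalization, median centring, a filter at the 30th percentile, the mean of probe sets, no trend, the compared groups alone, the replicate letter as a block, the covariate and leaving out each array. Treating every probe set as a feature was chosen after seeing the data. Probe sets listing Slc25a51 under 2 gene identifiers and 1 of Slc25a51l1 were left out by the rule.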

Additional observations from a re-analysis of the deposited data

Results flagged for a closer look

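The second probe set of Slc25a32, a folate and FAD carrier, was not used in the gene table, and it stood 0.34 higher on the log2 scale in abemaciclib 120 than in vehicle (limma adjusted p = 0.0253 with every probe set as a feature). Its mean signal over all arrays was 3.60, below every array median, and the brighter probe set of the gene gave -0.00119 (adjusted p = 0.997).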

How the results depend on the processing

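The 23 calls of single carriers were recomputed as 321 alternative values. Of these, 221 kept direction and threshold, 100 kept direction only, and 0 reversed. With 1 array left out, the number of carriers called ranged from 7 to 13 for the F test (11 with all arrays), 2 to 4 for abemaciclib 120 against vehicle (6), 1 to 9 for ribociclib against vehicle (5), 0 to 3 for abemaciclib 120 against 36 (3) and 4 to 11 for abemaciclib 120 against ribociclib (8), and 8 of the 23 calls passed in every such fit. The lowest counts came without abemaciclib 120 replicate A for the F test, without its replicate A or C against vehicle, without vehicle replicate C for ribociclib, without replicate A of either abemaciclib group between doses, and without replicate C of either group for abemaciclib 120 against ribociclib. The 13, 9 and 11 came without ribociclib replicate A. With the beta-actin covariate, 7 carriers were called in the F test, 1 in abemaciclib 120 against vehicle, 0 between abemaciclib doses and 3 in abemaciclib 120 against ribociclib. In fits of the compared groups alone, 1 was called in ribociclib against vehicle, 0 between abemaciclib doses and 2 in abemaciclib 120 against ribociclib, with fewer residual degrees of freedom. Without the trend, 8 were called in ribociclib against vehicle, and with median centring 14 in abemaciclib 120 against ribociclib. With every probe set as a feature, which tests more features, 0 were called between abemaciclib doses and 5 in abemaciclib 120 against ribociclib. Where no construction shows it, the cause was not tested. Over all genes, arrays of the same letter in different groups correlated at -0.311 to 0.593 in their deviations from the group means. The median was 0.0516, against -0.041 for arrays of different letters, and 19 of 45 same-letter pairs were over 0.1. These values do not settle whether the letters pair the arrays. Of the 18, 7 correlated best with their own letter. For Slc25a25, replicate B was the lowest array of each treated group. With the replicate block, 12 carriers were called in the F test, 6 in abemaciclib 120, 1 in abemaciclib 36 and 6 in ribociclib against vehicle, 3 between abemaciclib doses and 8 in abemaciclib 120 against ribociclib. Abemaciclib 36 against vehicle gave 1 call, and both palbociclib comparisons with vehicle 0, in every alternative run. Signals of the 8 carriers below the highest array median limit what can be seen for them.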

Other observations

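Probe sets outside the gene table gave values for further carriers. Of the probe sets that list Slc25a51, a mitochondrial NAD carrier, under 2 gene identifiers, the brighter gave a log2 difference of -0.56 (limma adjusted p = 0.0359) in abemaciclib 120 against vehicle and the other -0.17 (adjusted p = 0.775). The probe set of Slc25a51l1 gave -0.86 (adjusted p = 0.0107) in abemaciclib 120 and -0.59 (adjusted p = 0.141) in ribociclib.

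Of 5 carrier family genes under other symbols, 0 were called against vehicle by limma in abemaciclib 120 (1 at an unadjusted p under 0.05). In abemaciclib 120 against ribociclib, where 17.2% of all genes were called higher and 10% lower, 2 were higher and 0 lower, Mtch2 (0.67, adjusted p = 0.00724), an outer membrane protein, and Ucp2 (0.73, adjusted p = 0.0486), an uncoupling protein relative.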
